A study of Mus musculus with 4 samples.

Results

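Cytokine receptors of B cells are described here through 10 genes, *Il21r*, *Il10ra*, *Il2rg*, *Il6ra*, *Il5ra*, *Il7r*, *Il13ra1*, *Ifngr1*, *Ifnar1* and *Tgfbr2*. They were taken by name from a count table of 41214 genes, and all 10 were found. RNA was sequenced from B220+ splenocytes that had not been stimulated, from mice on a C57BL/6 background aged 40 to 70 days. MIZ-1 WT cells were compared with MIZ-1 ΔPOZ cells, in which MB1-Cre acting on the *Miz-1 floxPOZ* allele removes the POZ domain of the transcription factor MIZ-1 in B cells. MB1-Cre is expressed from the *Cd79a* locus, and whether the MIZ-1 WT mice carried it is not given in the sources used here. Cells were selected with a B220 antibody and magnetic beads, a gate that also admits B220+ cells of other lineages and cells that stick to the beads. Each genotype had 2 libraries described as biological replicates. The MIZ-1 WT libraries held 44452007 and 43026814 counts on genes, and the MIZ-1 ΔPOZ libraries 46387209 and 43214303.

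Cytokine receptors are built from chains. A ligand-binding chain usually joins a shared signalling chain, such as the common gamma chain (*Il2rg*), gp130 (*Il6st*) or the common beta chain (*Csf2rb*). Type I and type II receptors carry Janus kinases that phosphorylate STAT proteins, whereas TGF-β receptors are kinases themselves and phosphorylate SMAD proteins. In B cells, IL-4 drives CD23 expression and class switching, IL-21 drives plasma cell differentiation, IL-5 serves B-1 cells, interferons set antiviral and class-switch programs, and TGF-β restrains growth and directs switching to IgA.

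The targeted gene was read first. *Zbtb17*, which encodes MIZ-1, had 47.8 and 46.3 counts scaled to library size (CPM, with TMM factors) in the MIZ-1 WT libraries and 37.3 and 38.0 in the MIZ-1 ΔPOZ libraries. It fell by 0.32 on the log2 scale (edgeR adjusted p = 0.00857). A count over the whole gene does not show whether the exons of the POZ domain were lost, so it checks the labels only in part. *Xist*, the RNA of the inactive X chromosome, had 1.12 and 1.43 CPM in MIZ-1 WT and 802 and 931 CPM in MIZ-1 ΔPOZ. The Y-linked *Ddx3y*, *Eif2s3y*, *Kdm5d* and *Uty* ran the other way. *Ddx3y* had 363 and 354 CPM in MIZ-1 WT and 14.3 and 14.2 CPM in MIZ-1 ΔPOZ. This Y-linked RNA was low but not absent in MIZ-1 ΔPOZ, and the source of the remainder was not tested. Sex and genotype therefore cannot be told apart in any comparison below, and 2 of the receptor genes, *Il2rg* and *Il13ra1*, lie on the X chromosome.

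Of the 10 receptor genes, 3 rose in MIZ-1 ΔPOZ cells (*Il13ra1*, *Ifngr1*, *Il6ra*) and 5 fell (*Il5ra*, *Ifnar1*, *Il21r*, *Il2rg*, *Tgfbr2*), while *Il10ra* and *Il7r* did not pass an edgeR adjusted p of 0.05. Across the 14554 genes tested, 40.0% passed, 21.1% as higher (3076 genes) and 18.9% as lower (2746 genes), so calls were frequent throughout the transcriptome. The median log2 fold change was -0.18 over the 10 receptors and -0.0064 over all genes tested, with quartiles of -0.36 and 0.32 for the receptors and -0.23 and 0.33 for all genes. With the study's limits of 0.6 for the absolute log2 fold change and 0.05 for p, applied here to the unadjusted p, 2 of the 10 passed (*Il13ra1* and *Il5ra*), beside 20.3% of all genes tested. In 8 of the 10 the CPM of the genotypes did not overlap, as was the case for 74.8% of all genes tested.

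The direction of the smaller changes rests on the scaling. When libraries were scaled to 9 pan-B genes in place of TMM, the median of all genes moved by 0.30 on the log2 scale, and 6753 genes were called higher and 637 lower. The receptors then split into 4 higher and 2 lower, and their median log2 fold change turned to 0.12. Fold changes below are TMM values, which stand relative to the middle of the transcriptome. For each chain named below that changed its direction or call under pan-B scaling, that value is given. Without MIZ-1 WT replicate 1, 1 receptor was called higher and 3 lower, and 2204 genes were called in all. Without MIZ-1 WT replicate 2 these numbers were 2, 3 and 2825.

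**Figure D1:**
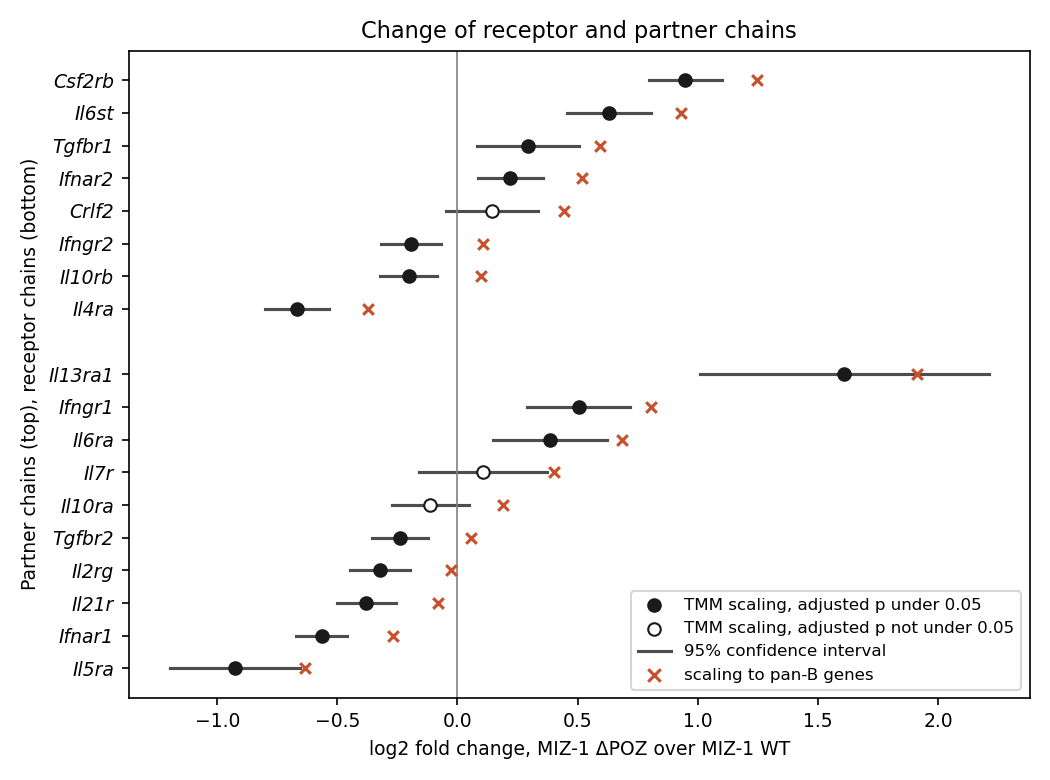
Log2 fold change (x axis, MIZ-1 ΔPOZ over MIZ-1 WT) of the 10 receptor chains (lower block) and 8 partner chains (upper block); circles are edgeR estimates with TMM scaling, filled where the adjusted p is under 0.05, lines are 95% confidence intervals and crosses are estimates with scaling to pan-B genes. *Il13ra1* lies farthest to the right at 1.61 and *Il5ra* farthest to the left at -0.93, and the crosses of *Tgfbr2*, *Il10ra*, *Il10rb* and *Ifngr2* lie on the other side of 0 from their circles.

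Levels were compared between genes as CPM per kb of merged exons. In MIZ-1 WT cells *Il10ra* stood highest at 100.3 ± 5.22 (SD, n = 2), followed by *Il2rg* at 68.5, *Il21r* at 59.9, *Ifngr1* at 49.8, *Tgfbr2* at 44.8 and *Ifnar1* at 35.2. Each of these levels lay above 90.4% of the genes tested. A gap separated them from *Il5ra* (6.66), *Il7r* (2.08), *Il6ra* (1.40 ± 0.125) and *Il13ra1* (1.36 ± 0.432). The last pair overlapped between replicates and has no order, whereas all other neighbours were apart in both libraries. In MIZ-1 ΔPOZ cells *Il10ra* again stood first at 92.8 per kb, *Ifngr1* moved to the second place at 70.7, and *Il13ra1* (4.15 ± 0.808) overlapped *Il5ra* (3.51 ± 0.478). The 6 abundant chains thus bind or serve IL-10, the gamma chain cytokines, interferons and TGF-β, and the 4 scarce ones bind IL-5, IL-6, IL-7 and IL-13.

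**Figure D2:**
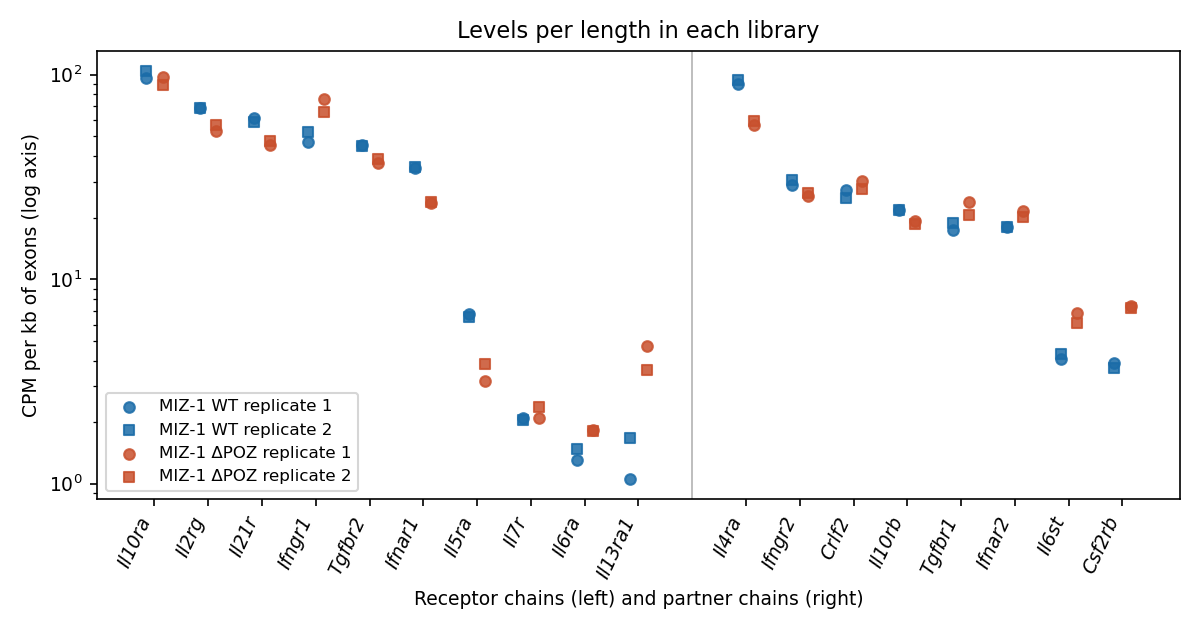
Level of each chain in CPM per kb of exons (log y axis) in each of the 4 libraries, for the 10 receptor chains (left) and the 8 partner chains (right), each ordered by its level in MIZ-1 WT; colours mark the genotype and symbols the replicate. The scarce chains from *Il5ra* to *Il13ra1* lie at 6.78 or less in every library, below the lowest *Ifnar1* value of 23.6.

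The common gamma chain *Il2rg* (chrX:101264378-101268255, minus strand, GRCm38) is shared by the receptors for IL-2, IL-4, IL-7, IL-9, IL-15 and IL-21. It had 163.5 CPM in each MIZ-1 WT library and 126 and 135 CPM in MIZ-1 ΔPOZ. Both MIZ-1 ΔPOZ libraries lay below both MIZ-1 WT libraries, and the groups did not overlap. The fall was -0.32 ± 0.051 (log2, SE; edgeR adjusted p = 0.00639), but the edgeR adjusted p was 0.0595 without MIZ-1 WT replicate 1, 0.0524 without MIZ-1 WT replicate 2, and 0.741 with pan-B scaling (log2 fold change -0.026). *Il2rg* shares 728 of its 2387 exon bases with the gene model *Gm20489* on the same strand, so its count is uncertain to that extent.

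*Il21r* (chr7:125603429-125633570, plus strand) encodes the chain that binds IL-21. Its levels were 204 and 195 CPM in MIZ-1 WT and 149.8 and 157 CPM in MIZ-1 ΔPOZ, again without overlap. It fell by 0.38 ± 0.0496 on the log2 scale (edgeR adjusted p = 0.00370), a call that was lost with pan-B scaling (log2 fold change -0.082, edgeR adjusted p = 0.308). *Il21r* and *Il2rg* fell by similar amounts, and the ratio of *Il21r* to *Il2rg* per kb was 0.894 and 0.856 in MIZ-1 WT against 0.852 and 0.832 in MIZ-1 ΔPOZ. Among the pairs whose ratios did not overlap, this ratio differed least between genotypes. Ratios of chains compare RNA over the whole gate and do not give the balance of chains within a single cell.

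*Il7r* (chr15:9505788-9530176, minus strand) serves early B cell progenitors and T cells and is scarce in mature B cells. It had 9.79 and 9.57 CPM in MIZ-1 WT and 9.75 and 11.1 CPM in MIZ-1 ΔPOZ. The groups overlapped, and the log2 fold change of 0.11 had a 95% confidence interval from -0.16 to 0.37 (edgeR adjusted p = 0.470); with pan-B scaling it was 0.40 and passed (edgeR adjusted p = 0.0221). T cell markers were low in all libraries, at a sum of 81.7 and 63.6 CPM over 12 genes in MIZ-1 WT and 84.4 and 90.9 CPM in MIZ-1 ΔPOZ, with *Lck* the most abundant and none at 0 counts. Of these 12, *Cd4* and *Cd28* were called higher and 10 did not pass. What T cells contributed to the *Il7r* counts was not tested. *Crlf2*, which joins *Il7r* in the receptor for TSLP, had 40.7 and 37.3 CPM in MIZ-1 WT and 45.2 and 41.0 CPM in MIZ-1 ΔPOZ (log2 fold change 0.14, edgeR adjusted p = 0.189; 0.44 and 0.00833 with pan-B scaling).

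The other gamma chain receptors, read beside 21.1% of all genes called higher and 18.9% called lower, were led by *Il9r*. This chain, which binds IL-9, had 133 and 147 CPM in MIZ-1 WT and 719.6 and 709 CPM in MIZ-1 ΔPOZ. The genotypes were far apart, and the rise was 5.10-fold (log2 fold change 2.35 ± 0.063, edgeR adjusted p = 8.19e-05). The ratio of *Il9r* to *Il2rg* per kb went from 0.393 and 0.434 to 2.75 and 2.53, and in MIZ-1 ΔPOZ its 145.5 and 143.4 CPM per kb exceeded every chain named above. *Il15ra* rose from 5.36 and 4.64 CPM to 8.49 and 8.59 CPM (log2 fold change 0.77, edgeR adjusted p = 0.00779), a call lost without MIZ-1 WT replicate 2 (edgeR adjusted p = 0.0547). The IL-2 receptor chains *Il2ra* (1.49 and 0.785 CPM against 0.525 and 0.661) and *Il2rb* (10.6 and 9.73 against 11.2 and 13.4) did not pass, with edgeR adjusted p of 0.102 and 0.126; *Il2rb* passed with pan-B scaling (0.57, edgeR adjusted p = 0.00609) and without MIZ-1 ΔPOZ replicate 1 (0.40, edgeR adjusted p = 0.0382). In all, 2 of these 4 genes were called higher and 0 lower, with a median log2 fold change of 0.52, and without MIZ-1 WT replicate 2 only *Il9r* was called.

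*Il4ra* binds IL-4 and pairs either with *Il2rg* or with *Il13ra1*, the latter forming the receptor that also takes IL-13. *Il13ra1* (chrX:36112110-36171259, plus strand) had 3.92 and 6.19 CPM in MIZ-1 WT and 17.5 and 13.3 CPM in MIZ-1 ΔPOZ. Both MIZ-1 ΔPOZ libraries were higher than both MIZ-1 WT libraries, although the replicates of each genotype lay far apart. Its rise of 3.05-fold was the largest among the 10 receptors with TMM and with pan-B scaling (log2 fold change 1.61 ± 0.24, edgeR adjusted p = 0.00559). *Il4ra*, the most abundant partner chain, moved the other way, from 539.9 and 568 CPM to 339 and 358 CPM (log2 fold change -0.67 ± 0.054, edgeR adjusted p = 0.00121). The ratio of *Il13ra1* to *Il4ra* per kb rose from 0.0117 and 0.0176 to 0.0836 and 0.0601. Over the whole gate, *Il4ra* RNA thus remained in large excess in every library. *Il4ra* (chr7:125552120-125579474, plus strand) lies 23954 bases before *Il21r* on the same strand, and both fell. *Il4ra* shares 571 of 6002 exon bases with *Gm44876* on the opposite strand, and the strand setting of the counting is not given in the sources used here.

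Markers of macrophages moved with *Il13ra1*. All 16 macrophage markers were called higher in MIZ-1 ΔPOZ, with a median log2 fold change of 1.98, and their summed level was 982 and 1307 CPM in MIZ-1 WT and 5843 and 3655 CPM in MIZ-1 ΔPOZ. *C1qa* was the most abundant per kb, at 55.4 and 73.4 against 359 and 209, and none of the 16 was at 0 counts. The markers were lower in replicate 1 than in replicate 2 of MIZ-1 WT (median log2 difference -0.39) and higher in replicate 1 than in replicate 2 of MIZ-1 ΔPOZ (0.68). Of all genes tested, 28.2% had these signs, and of all genes called higher 44.8%. Of the 10 receptors, 4 had them: *Il13ra1* (-0.66 and 0.40), *Ifngr1* (-0.16 and 0.20), *Il6ra* (-0.18 and 0.013) and *Il10ra* (-0.11 and 0.13), the last without a call between genotypes. So did the partner chains *Il6st* (-0.071 and 0.16) and *Tgfbr1* (-0.13 and 0.22). Genes named elsewhere with these signs include *Il9r* (-0.14 and 0.020), *Csf1r*, *Prlr*, *Il15*, *Jak3*, *Socs3* and *Prdm1*, and the markers *Zbtb32*, *Spn*, *Jchain*, *Cd28*, *Siglech*, *Itgax* and *Prg2*. Other genes called higher did not have them, such as *Csf2rb* (0.090 and 0.032), *Il15ra* (0.21 and -0.017) and *Ifnar2* (0.0056 and 0.090). The part of macrophages in these results was not tested. In RNA from a whole gate, a change in the number of cells of a type and a change in RNA per cell cannot be told apart.

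**Figure D3:**
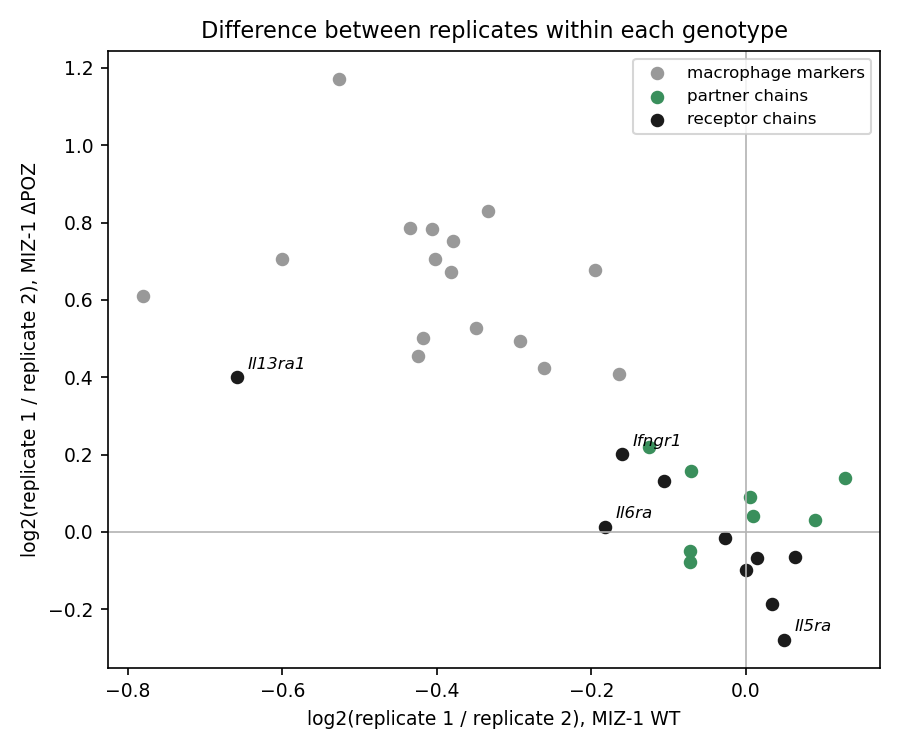
Log2 ratio of replicate 1 to replicate 2 in CPM within MIZ-1 WT (x axis) and within MIZ-1 ΔPOZ (y axis) for the 10 receptor chains (black), the 8 partner chains (green) and the 16 macrophage markers (grey). All macrophage markers lie in the upper left quadrant, as do *Il13ra1* (-0.66, 0.40), *Ifngr1* (-0.16, 0.20), *Il6ra*, *Il10ra*, *Il6st* and *Tgfbr1*, while *Il5ra* lies on the lower right (0.05, -0.28).

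*Il5ra* (chr6:106710357-106749037, minus strand) encodes the chain that binds IL-5. It had 24.2 and 23.4 CPM in MIZ-1 WT and 11.3 and 13.7 CPM in MIZ-1 ΔPOZ. Each MIZ-1 ΔPOZ library lay far below each MIZ-1 WT library. The log2 fold change of -0.93 ± 0.11 (edgeR adjusted p = 0.00284) left 0.526 of the MIZ-1 WT level, and it kept its sign and its call with pan-B scaling (-0.63, edgeR adjusted p = 0.00216) and without any of the 4 libraries. Of 5 markers of B-1 cells, which IL-5 serves, 3 were called higher (*Ctla4*, *Bhlhe41*, *Zbtb32*), 0 lower and 2 did not pass (*Cd5* and *Spn*, the most abundant), with sums of 68.6 and 71.6 CPM in MIZ-1 WT and 83.6 and 82.2 CPM in MIZ-1 ΔPOZ. *Zbtb32* had replicate differences of -0.22 and 0.59, the signs of the macrophage markers. The part of B-1 cells in the *Il5ra* result was not tested. The common beta chain *Csf2rb*, which signals for IL-5, IL-3 and GM-CSF, went up from 28.4 and 26.7 CPM to 53.7 and 52.5 CPM (log2 fold change 0.95 ± 0.062, edgeR adjusted p = 0.000807). Per kb, *Il5ra* therefore stood at 1.74 and 1.79 times *Csf2rb* in MIZ-1 WT against 0.430 and 0.533 times in MIZ-1 ΔPOZ. Over the whole gate, this turned the order of their RNAs around. *Csf2rb* has a near-identical copy, *Csf2rb2*, with 91 and 79 counts against 90 and 95 (log2 fold change 0.031, edgeR adjusted p = 0.913), and reads that fit both genes make these counts uncertain.

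*Il6ra* (chr3:89864059-89913196, minus strand) binds IL-6 and then recruits gp130, the product of *Il6st*. *Il6ra* had 11.3 and 12.8 CPM in MIZ-1 WT and 15.8 and 15.7 CPM in MIZ-1 ΔPOZ. The genotypes did not overlap, and the MIZ-1 WT replicates lay farther from each other than the MIZ-1 ΔPOZ replicates did. Its rise (log2 fold change 0.38 ± 0.10, edgeR adjusted p = 0.0250) was not called without MIZ-1 WT replicate 1 (edgeR adjusted p = 0.155) or without MIZ-1 WT replicate 2 (0.0583). *Il6st* rose from 45.3 and 47.6 CPM to 75.7 and 67.9 CPM (log2 fold change 0.63 ± 0.071, edgeR adjusted p = 0.00252). The ratio of the binding chain to gp130 per kb was 0.321 and 0.346 in MIZ-1 WT against 0.268 and 0.296 in MIZ-1 ΔPOZ. *Il6ra* shares 242 of 8642 exon bases with *Gm42809* on the opposite strand.

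*Il10ra* (chr9:45253837-45269149, minus strand) binds IL-10, a cytokine that B cells both make and respond to. It had 338 and 364 CPM in MIZ-1 WT and 339 and 309.9 CPM in MIZ-1 ΔPOZ, and the groups overlapped. The log2 fold change of -0.11 had a 95% confidence interval from -0.27 to 0.049 (edgeR adjusted p = 0.218), and its sign turned with pan-B scaling (0.19, edgeR adjusted p = 0.0985). Its partner *Il10rb*, shared with the receptors for IL-22 and interferon lambda, had 83.4 and 82.8 CPM against 73.2 and 71.2. That fall of -0.20 ± 0.048 (edgeR adjusted p = 0.0217) turned to 0.10 with pan-B scaling (edgeR adjusted p = 0.320), and the call was lost without MIZ-1 WT replicate 1 (edgeR adjusted p = 0.139) or 2 (0.118). Per kb, *Il10ra* stood at 4.41 and 4.78 times *Il10rb* in MIZ-1 WT against 5.045 and 4.74 times in MIZ-1 ΔPOZ, and these ratios overlapped.

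The chains for interferons changed in a crossed manner. *Ifngr1* (chr10:19591949-19610229, plus strand), which binds interferon gamma, had 134 and 149.8 CPM in MIZ-1 WT and 215 and 187 CPM in MIZ-1 ΔPOZ. All MIZ-1 ΔPOZ values were above all MIZ-1 WT values, with the widest gap between replicates in MIZ-1 ΔPOZ. It rose by a log2 fold change of 0.50 ± 0.087 (edgeR adjusted p = 0.00828), which did not pass without MIZ-1 WT replicate 1 (0.43, edgeR adjusted p = 0.0625). The second chain, *Ifngr2*, had 109 and 115 CPM against 96.3 and 99.6 (log2 fold change -0.19, edgeR adjusted p = 0.0295), with a change of sign under pan-B scaling (0.10, edgeR adjusted p = 0.220). *Ifngr2* was not called without MIZ-1 WT replicate 1 (edgeR adjusted p = 0.103), MIZ-1 WT replicate 2 (0.196) or MIZ-1 ΔPOZ replicate 1 (0.0558). The *Ifngr1* to *Ifngr2* ratio per kb was 1.63 and 1.73 in MIZ-1 WT against 2.96 and 2.49 in MIZ-1 ΔPOZ.

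For type I interferons it was the other way around. *Ifnar1* (chr16:91485238-91507441, plus strand) had 207 and 211 CPM in MIZ-1 WT and 140.4 and 142 CPM in MIZ-1 ΔPOZ. Replicates were close together and the genotypes lay well apart. This log2 fold change of -0.57 ± 0.043 had the smallest p among the 10 receptors (edgeR adjusted p = 0.00108) and kept its call with pan-B scaling (-0.27, edgeR adjusted p = 0.00949) and without any of the 4 libraries. *Ifnar2* had 59.8 and 59.6 CPM against 71.7 and 67.4 (log2 fold change 0.22, edgeR adjusted p = 0.0256), with calls lost without MIZ-1 WT replicate 1 (edgeR adjusted p = 0.136), MIZ-1 WT replicate 2 (0.134) or MIZ-1 ΔPOZ replicate 1 (0.0763). Per kb, *Ifnar1* stood at 1.94 and 1.98 times *Ifnar2* in MIZ-1 WT and at 1.10 and 1.18 times in MIZ-1 ΔPOZ.

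These interferon and IL-10 receptor genes lie side by side on the plus strand of chromosome 16, in the order *Ifnar2*, *Il10rb*, *Ifnar1* and *Ifngr2*, with 574, 59403 and 39630 bases between them. Within this cluster *Ifnar2* was higher in MIZ-1 ΔPOZ while its 3 neighbours were lower with TMM scaling, *Il10rb* and *Ifngr2* turning with pan-B scaling as given above. The gene model *Gm21970* shares 315 of the 3329 exon bases of *Ifnar2* and 569 of the 3808 exon bases of *Il10rb* on the same strand, and the counts of both are uncertain to that extent.

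*Tgfbr2* (chr9:116084293-116175360, minus strand) is the kinase that binds TGF-β and activates the kinase *Tgfbr1*. It had 369 and 365 CPM in MIZ-1 WT and 303 and 318 CPM in MIZ-1 ΔPOZ, with no overlap. Its log2 fold change of -0.24 ± 0.047 (edgeR adjusted p = 0.0121) turned to 0.056 with pan-B scaling (edgeR adjusted p = 0.454), and its call was lost without MIZ-1 WT replicate 1 (edgeR adjusted p = 0.0922) or 2 (0.0748). *Tgfbr1* rose from 113 and 123 CPM to 156 and 134 CPM (log2 fold change 0.29, edgeR adjusted p = 0.0404), a call lost without MIZ-1 WT replicate 1 (edgeR adjusted p = 0.210), MIZ-1 WT replicate 2 (0.0896) or MIZ-1 ΔPOZ replicate 1 (0.0644). Per kb, the ratio of *Tgfbr2* to *Tgfbr1* went from 2.60 and 2.36 to 1.55 and 1.89.

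Over the 8 partner chains, 4 were called higher (*Csf2rb*, *Il6st*, *Tgfbr1*, *Ifnar2*), 3 lower (*Il4ra*, *Il10rb*, *Ifngr2*) and 1 was not called (*Crlf2*). Among all genes tested, 40.0% were called. The partner chains had a median log2 fold change of 0.18. With pan-B scaling that median was 0.48, and 5 partner chains were called higher and 1 lower. Without MIZ-1 WT replicate 1 or 2, only *Csf2rb* and *Il6st* were called higher and *Il4ra* lower, and without MIZ-1 ΔPOZ replicate 1 the same 2 were called higher. Among the 10 receptor chains, 2 were called in the same direction as the partner, *Il6ra* with *Il6st* and *Il21r* with *Il2rg*, and 5 in the opposite direction: *Il13ra1* with *Il4ra*, *Il5ra* with *Csf2rb*, *Ifngr1* with *Ifngr2*, *Ifnar1* with *Ifnar2*, and *Tgfbr2* with *Tgfbr1*. Without MIZ-1 WT replicate 1 or 2, only the first 2 of these 5 kept both calls, and neither of the same-direction pairs did. Outside these 10, *Il4ra* was called lower with *Il2rg* (ratio per kb 1.31 and 1.38 in MIZ-1 WT against 1.07 and 1.05), while *Il9r* and *Il15ra* were called higher; the *Il2rg* call was lost without either MIZ-1 WT library, as given above. With pan-B scaling *Ifngr2* (0.10) and *Tgfbr2* (0.056) took the sign of the other chain, and the other 3 of the 5 kept opposite signs. No test was made of the ratios, which come from RNA of the whole gate and do not give the balance of chains within a single cell.

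Outside these complexes, 22 of 29 other cytokine receptor genes were tested. Of these, 8 were called higher, 1 lower and 13 not, beside 40.0% of all genes called. Their median log2 fold change was 0.33, but 0.13 without MIZ-1 WT replicate 2 and 0.48 without MIZ-1 ΔPOZ replicate 1. Without MIZ-1 WT replicate 1 the counts were 5 and 0, and without replicate 2 they were 4 and 0. Without either MIZ-1 ΔPOZ library 2 were called lower. *Csf1r*, the receptor of macrophages for M-CSF and also among the macrophage markers, rose from 86.2 and 106 CPM to 439 and 312 CPM (log2 fold change 1.97, edgeR adjusted p = 0.00161); 873 of its 5774 exon bases lie opposite *Hmgxb3*. *Epor*, for erythropoietin, went from 0.642 and 0.595 CPM to 3.13 and 2.55 CPM (2.20, edgeR adjusted p = 0.00210), and *Prlr*, for prolactin, from 0.321 and 0.547 CPM to 2.84 and 2.17 CPM (2.52, edgeR adjusted p = 0.00344), the latter with replicate differences of -0.77 and 0.39, the signs of the macrophage markers. Erythroid markers were 0 of 7 called in either direction, with sums of 48.0 and 59.4 CPM in MIZ-1 WT and 38.2 and 109 CPM in MIZ-1 ΔPOZ. *Il27ra* was the 1 gene called lower, from 81.0 and 82.3 CPM to 63.0 and 71.1 CPM (-0.28, edgeR adjusted p = 0.0240); it was at 0.011 with pan-B scaling and not called without MIZ-1 WT replicate 1 (edgeR adjusted p = 0.110) or 2 (0.121). Per kb, *Il27ra* (23.4) and *Il17ra* (22.8) stood above *Csf1r* (16.6) in MIZ-1 WT, and *Csf1r* (64.99) stood above both in MIZ-1 ΔPOZ. *Il17ra* had 195 and 200.0 CPM against 180.5 and 184 (-0.11, edgeR adjusted p = 0.0854; 0.18 and 0.0398 with pan-B scaling). *Il22ra1*, an IL-22 receptor chain of epithelia, had 0 counts in all 4 libraries, which allows at most 0.0714 CPM per library at 3 counts.

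Of 19 ligand genes, 6 reached the filter of 10 counts in 2 libraries, and *Il9*, *Il5*, *Il13*, *Ifna1*, *Ifna2* and *Ifna4* had 0 counts in all 4 libraries. *Tgfb1*, the most abundant, fell from 36.6 and 32.7 CPM to 22.2 and 23.0 CPM (log2 fold change -0.62 ± 0.0798, edgeR adjusted p = 0.00359). *Il15* rose from 1.95 and 2.31 CPM to 7.48 and 5.10 CPM (1.57 ± 0.24, edgeR adjusted p = 0.00551), with replicate differences of -0.24 and 0.55 on the log2 scale, the signs seen for the macrophage markers. The other 4 ligands tested did not pass, and the median over the 6 was 0.31 (0.78 without MIZ-1 WT replicate 1, -0.047 without MIZ-1 WT replicate 2). Without MIZ-1 ΔPOZ replicate 2, 2 ligands were called higher.

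Of 15 kinases and transducers behind these receptors, 2 were called higher, 4 lower and 9 not, beside 40.0% of all genes called, with a median log2 fold change of -0.077. With pan-B scaling, 8 were called higher and 3 lower. *Jak3*, the kinase bound to the common gamma chain, rose from 61.7 and 62.1 CPM to 91.3 and 86.2 CPM (0.52, edgeR adjusted p = 0.00198), while *Il2rg* itself was lower. *Jak3* shares 404 of 5352 exon bases with *Insl3*. *Smad3*, a transducer of TGF-β signals, rose from 47.4 and 43.3 CPM to 70.2 and 76.7 CPM (0.70, edgeR adjusted p = 0.00211), and *Smad4*, its partner in the nucleus, fell from 99.8 and 101 CPM to 70.1 and 72.6 CPM (-0.49, edgeR adjusted p = 0.00181). *Stat6*, the transducer of IL-4 and IL-13, was the most abundant of the list together with *Jak1*. It fell from 365 and 341 CPM to 247 and 257 CPM (-0.49, edgeR adjusted p = 0.00237), the same direction as *Il4ra*. *Stat4*, known for IL-12 signals, fell from 104 and 91.3 CPM to 59.97 and 62.8 CPM (-0.67, edgeR adjusted p = 0.00253), with 1033 of its 3872 exon bases shared with *Gm28177*. *Jak1* overlapped between genotypes, at 507 and 503 CPM against 450.4 and 507 (-0.077, edgeR adjusted p = 0.400; 0.22 and 0.0200 with pan-B scaling, and 0.0081 without MIZ-1 ΔPOZ replicate 1).

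Inhibitors and sheddases gave 4 higher, 3 lower and 4 not called of 11, beside 40.0% of all genes called. Their median log2 fold change was -0.039, but 0.26 with pan-B scaling, where 8 were called higher and 1 lower. This median was 0.0014 without MIZ-1 WT replicate 1 and 0.081 without MIZ-1 ΔPOZ replicate 1. The 4 genes called higher with TMM scaling were members of the SOCS family, which STAT proteins induce and which block the receptors in turn. *Socs2* rose from 1.08 and 0.976 CPM to 2.71 and 2.55 CPM (1.36, edgeR adjusted p = 0.00499), and *Socs3* from 11.0 and 13.3 CPM to 26.9 and 18.8 CPM (0.91, edgeR adjusted p = 0.0143; 0.0908 without MIZ-1 WT replicate 1). *Socs3* had replicate differences of -0.27 and 0.52, the signs of the macrophage markers. *Cish* went from 0.940 and 0.547 CPM to 1.81 and 1.73 CPM (1.24, edgeR adjusted p = 0.0228), a call lost without MIZ-1 WT replicate 2 (edgeR adjusted p = 0.0872) or MIZ-1 ΔPOZ replicate 1 (0.0510). Without either of these libraries, 2 of the list were called higher. *Ptpn6*, the phosphatase SHP-1 and the most abundant gene of the list, fell from 1317 and 1310.0 CPM to 939 and 943 CPM (-0.48 ± 0.0495, edgeR adjusted p = 0.00202). *Skil* and *Smad7*, which inhibit SMAD signals, were also called lower with TMM scaling. *Skil* had 233 and 222 CPM against 177 and 179 (-0.36, edgeR adjusted p = 0.00363; -0.058 and 0.486 with pan-B scaling), and *Smad7* had 29.7 and 35.3 CPM against 25.1 and 26.2 (-0.34, edgeR adjusted p = 0.0375; -0.043 and 0.747 with pan-B scaling). *Smad7* was not called without MIZ-1 WT replicate 2 (edgeR adjusted p = 0.175) or MIZ-1 ΔPOZ replicate 1 (0.0812). *Adam17*, which cleaves the IL-6 receptor from the surface, had 239 and 226.5 CPM against 227 in each MIZ-1 ΔPOZ library (-0.039, edgeR adjusted p = 0.546), and its sign turned with pan-B scaling (0.26, edgeR adjusted p = 0.0144) and without MIZ-1 WT replicate 1 (0.0014). Exon bases are shared with genes on the opposite strand in *Ptpn6* (195 of 2802), *Adam17* (311 of 7154) and *Cish* (479 of 6419 with *Gm17041*), which leaves these counts uncertain.

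Among 19 genes known as targets of these cytokines, 9 were called higher, 6 lower and 4 not, beside 40.0% of all genes called. Their median log2 fold change was 0.53, and with pan-B scaling 12 were called higher and 3 lower. Without MIZ-1 WT replicate 1, 3 were called lower, and without replicate 2, 2 were. *Fcer2a*, which encodes CD23 and is induced by IL-4, fell from 238 and 247 CPM to 123 and 168 CPM (-0.74 ± 0.14, edgeR adjusted p = 0.0109), in the direction of *Il4ra* and *Stat6*. Its call was lost without MIZ-1 WT replicate 1 (edgeR adjusted p = 0.0577) or 2 (0.0592), and it is also a marker of follicular B cells. *Bcl6*, the repressor of the germinal centre, fell from 114 and 105 CPM to 42.7 and 43.0 CPM (-1.36 ± 0.0598, edgeR adjusted p = 0.000682), and *Prdm1*, the plasma cell regulator that IL-21 induces, rose from 6.24 and 6.83 CPM to 17.4 and 17.0 CPM (1.40 ± 0.10, edgeR adjusted p = 0.000887), opposite in direction to *Il21r*. *Prdm1* is also among the plasma cell markers, of which 5 of 6 were higher. *Id3*, a target of TGF-β family signals, fell from 101.5 and 110.2 CPM to 54.4 and 58.1 CPM (-0.91, edgeR adjusted p = 0.000960).

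*Gbp2*, induced by interferon gamma, rose from 51.1 and 50.5 CPM to 71.8 and 75.4 CPM (0.53, edgeR adjusted p = 0.00191). *Ciita*, the master regulator of MHC class II and after *Fcer2a* the most abundant of the targets per kb in MIZ-1 WT, went from 615 and 723 CPM to 542 and 562 CPM (-0.28, edgeR adjusted p = 0.0452). Its sign turned with pan-B scaling (0.020, edgeR adjusted p = 0.856), and it was not called without MIZ-1 WT replicate 2 (edgeR adjusted p = 0.186), MIZ-1 ΔPOZ replicate 1 (0.0869) or MIZ-1 ΔPOZ replicate 2 (0.0507). *Pim1*, a kinase gene that STAT proteins induce, rose from 59.7 and 59.6 CPM to 97.7 and 88.9 CPM (0.65, edgeR adjusted p = 0.00178). Of its exon bases, 488 of 3362 are shared with the antisense gene *Gm26885*, and 329 of 9535 in *Ciita* with *Dexi* on the opposite strand.

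Marker genes of several B cell subsets shifted as well, and not every subset of the gate is covered here. For these and the other marker lists, the shares over all genes tested were 21.1% called higher and 18.9% called lower. Pan-B markers were 0 of 10 higher and 8 of 10 lower (median log2 fold change -0.28), with sums of 10240 and 10500 CPM in MIZ-1 WT and 8378 and 8778 CPM in MIZ-1 ΔPOZ and *Cd79b* the most abundant. *Cd79a*, whose locus carries the Cre, fell the most of them (-1.44, edgeR adjusted p = 0.00157). Of 4 transitional and immature markers tested, 3 were lower (100.9 and 90.4 against 49.7 and 55.3 CPM, *Vpreb3* most abundant). All 6 marginal zone markers were higher (2719 and 2706 against 3349 and 3583 CPM, *Cr2* most abundant), as were 5 of 6 plasma cell markers (734 and 1059 against 2477 and 2311 CPM, *Jchain* most abundant). How far the makeup of the gate accounts for any receptor's change was not tested.

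NK cell markers were 1 of 6 higher and 1 of 6 lower (47.0 and 46.0 against 47.6 and 52.1 CPM, *Gzma* most abundant). Neutrophil markers were 1 of 6 tested higher (14.9 and 4.76 against 9.04 and 17.2 CPM, *S100a9* most abundant), and plasmacytoid dendritic cell markers 1 of 5 higher (74.7 and 70.7 against 77.8 and 59.5 CPM, *Siglech* most abundant). Conventional dendritic cell markers were 3 of 6 higher and 1 lower (35.9 and 37.0 against 66.1 and 49.4 CPM, *Itgax* most abundant). Those of basophils, mast cells and eosinophils were 2 of 3 tested higher (2.73 and 4.45 against 11.96 and 8.16 CPM, *Prg2* most abundant), while *Mcpt8* and *Epx*, which define basophils and eosinophils, had 0 counts in all libraries. Megakaryocyte markers summed to 1.63 and 1.76 against 1.89 and 1.85 CPM (1 of 3 tested higher, *Pf4* most abundant). Stroma and endothelium gave 1 of 3 tested lower, *Pecam1*, which B cells also express, with sums of 311 and 313 against 257 and 268 CPM.

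Promoters were read from the RefSeq table (GRCm38.p6), which covers 250 bases before to 50 after each start and holds 9 of the 10 receptors; *Il10ra* was not matched. CpG dinucleotides in these 300 bases ranged widely: *Il13ra1* had 28, *Ifnar1* 26, *Il6ra* 25, *Tgfbr2* 15 and *Ifngr1* 14, followed by *Il21r* with 7, *Il5ra* with 4, *Il2rg* with 3 and *Il7r* with 1, where the median of all 32851 promoters was 7. The 3 receptors that rose lay above that median, while those that fell lay above it (*Ifnar1*, *Tgfbr2*), at it (*Il21r*) or below it (*Il5ra*, *Il2rg*). The 250 bases before the start are shown for the largest rise, *Il13ra1* (chrX:36111858-36112107, plus strand), and the largest fall, *Il5ra* (chr6:106749038-106749287, minus strand), each 5′ to 3′ on the gene's strand with CpG dinucleotides in capitals; they hold 21 and 4.
Il13ra1: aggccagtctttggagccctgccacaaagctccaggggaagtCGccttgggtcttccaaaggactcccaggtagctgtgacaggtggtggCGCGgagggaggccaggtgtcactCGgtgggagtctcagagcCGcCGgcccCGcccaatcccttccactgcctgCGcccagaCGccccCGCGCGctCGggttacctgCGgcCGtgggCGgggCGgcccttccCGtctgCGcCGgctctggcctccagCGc
Il5ra: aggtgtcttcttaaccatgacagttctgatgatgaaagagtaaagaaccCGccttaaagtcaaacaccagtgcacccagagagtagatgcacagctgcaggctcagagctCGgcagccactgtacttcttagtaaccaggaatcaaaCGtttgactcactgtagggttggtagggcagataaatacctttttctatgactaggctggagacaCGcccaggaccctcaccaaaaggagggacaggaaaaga

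The STAT motif TTCNNNGAA, which reads the same on both strands, was found in 2 of the 9 receptor promoters, *Ifnar1* and *Il7r*, and in 8.3% of all promoters of this length (2726 of 32851). It began 5 bases before the RefSeq start of *Ifnar1* and 142 bases before that of *Il7r*. Among the partner chains, 6 were in the table, and *Ifnar2* held the motif 214 bases before its start. The matches are shown with 45 bases before and 6 after them, with the motif in capitals, for *Ifnar1* (chr16:91485165-91485224, plus strand) and *Il7r* (chr15:9530004-9530063, minus strand). The RefSeq starts of these 2 genes are not starts of GENCODE transcripts, so their distances are uncertain. The *Il7r* stretch lies inside the GENCODE span of the gene given above, after the start of that span on the minus strand. A match describes the letters only, and *Ifnar1* fell while *Il7r* was not called.
Ifnar1: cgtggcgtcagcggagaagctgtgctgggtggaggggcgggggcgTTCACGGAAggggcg
Il7r: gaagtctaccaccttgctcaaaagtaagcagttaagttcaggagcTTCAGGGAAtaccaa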

How the data were processed

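Reads of rRNA-depleted, stranded libraries (paired-end) were trimmed with Trimmomatic, mapped to GRCm38 with TopHat2 (version 2.1.0 per the labels) and counted on Ensembl genes with HTSeq by the authors, whose deposited values are raw counts. The strand setting and Ensembl release are not given in the sources used here. Lines that name no gene were left out: reads outside genes, ambiguous (0.281% to 0.302% of the table total) and not uniquely placed (42.8% to 44.1%). Reads outside genes were 27.2% and 25.5% of the table total in the MIZ-1 WT libraries and 21.6% and 21.1% in the MIZ-1 ΔPOZ libraries. Symbols and exon lengths came from GENCODE (40340 of 41214 genes matched). Genes with at least 10 counts in 2 libraries were tested with edgeR 4.0.16 (R 4.3.3; TMM, quasi-likelihood test, Benjamini-Hochberg over all genes tested), a script tested on simulated data. DESeq2 1.42.0, other filters and scalings, removal of immunoglobulin genes, a replicate block and leaving out each library were alternatives. All receptors and partner chains are named; from longer lists, the 3 smallest p in each direction and the 2 most abundant genes per kb over all libraries; from marker lists, the most abundant and those at 0, any others, such as single B-1 or T cell markers, after their values were seen. Members and lists were chosen with earlier results of these data known. Intervals at 0 counts cover counting error only.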

Additional observations from a re-analysis of the deposited data

How the results depend on the processing

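With 2 libraries per genotype, the spread of each gene rests mostly on what edgeR borrows from other genes, and depth limits what 0 counts can show (at most 0.0714 CPM). DESeq2 (test or size factors), no filter (21025 genes tested) and removal of immunoglobulin genes kept the direction and call of all 49 named genes. The DESeq2 Wald test and no filter each called 2 other cytokine receptors lower in place of 1, and no filter called 2 ligands higher in place of 1 and gave a kinase median of -0.0855 in place of -0.077; the cause was not tested.

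A filter of a mean of at least 30 RPM tested 6052 genes, which left out *Il6ra*, *Il5ra*, *Il7r*, *Il13ra1* and every ligand. It called 2746 genes (1464 higher, 1282 lower), 1 receptor higher (median -0.21), 1 partner chain lower (median 0.26), 1 other gamma chain receptor higher (median 2.43), 1 other cytokine receptor higher and 0 lower (median -0.038), 0 inhibitors higher, and 4 targets higher and 3 lower (median -0.11); the kinase median was -0.0010 and *Adam17* turned to 0.037. Among the named genes that it tested, 28 kept their call, 4 lost it and 1 turned. Their log2 fold changes were also higher than in the main fit (*Il21r* -0.30 in place of -0.38, *Il10rb* -0.13 in place of -0.20). The cause of the lost calls was not tested.

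Scaling to pan-B genes called 6753 genes higher and 637 lower, with 2 receptors lower (median 0.12), 1 partner chain lower (0.48), 0 other cytokine receptors lower (0.63), 2 ligands higher, 8 kinases higher (0.22), 8 inhibitors higher and 1 lower (0.26), 3 targets lower (0.83) and a median of 0.82 for the other gamma chain receptors. By its construction it raises every fold change. It turned *Il10ra* (0.19), *Tgfbr2* (0.056), *Il10rb* (0.10), *Ifngr2* (0.10), *Il27ra* (0.011), *Il17ra* (0.18), *Jak1* (0.22), *Adam17* (0.26) and *Ciita* (0.020). Of these turned genes, *Il17ra*, *Jak1* and *Adam17* gained a call, and *Tgfbr2*, *Il10rb*, *Ifngr2*, *Il27ra* and *Ciita* lost theirs. Among the named genes that did not turn, 33 kept their call, 3 gained and 4 lost it.

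The replicate block called 4732 genes, 2 partner chains higher and 1 lower, and 2 ligands higher. Of the named genes it lost the calls of *Il10rb*, *Ifngr2*, *Ifnar2* and *Tgfbr1* (edgeR adjusted p 0.0601, 0.0582, 0.0592 and 0.0670) and changed no other; the check on pairing gave -0.0688, so the numbers do not pair the samples, and the cause was not tested.

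Leave-one-out fits have fewer samples and assume that the lone library varies like the other genotype. They called 2204 to 5739 genes (1367 to 3017 higher, 837 to 2722 lower). The ranges were 1 to 3 receptors higher and 3 to 5 lower (median -0.20 to -0.15), 2 to 4 partner chains higher and 1 to 3 lower, 1 to 3 other gamma chain receptors higher, 4 to 8 other cytokine receptors higher and 0 to 2 lower (median 0.13 to 0.48), 1 to 2 ligands higher (median -0.047 to 0.78), a kinase median of -0.074 to -0.053, 2 to 5 inhibitors higher (median -0.066 to 0.081), and 2 to 5 targets lower (median 0.41 to 0.72). *Adam17* ranged from -0.079 to 0.0014 (turned without MIZ-1 WT replicate 1) and *Jak1* from -0.16 to 0.0081 (turned without MIZ-1 ΔPOZ replicate 1).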
